A study of Mus musculus with 9 samples.

Results

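The antigen presentation genes described here are the protein-coding genes of the deposited RNA-seq table whose name begins with H2-, together with B2m, Tap1, Tap2, Tapbp, Cd74, Nlrc5, Erap1, Calr, Canx and Pdia3. They number 28 of 19769 genes in the table, of which 15118 are protein-coding. By role they divide into 14 class I genes (13 heavy chains and the light chain B2m), 5 class II chains (H2-Ab1, H2-Eb1, H2-DMa, H2-DMb1 and Cd74), 7 genes of peptide processing and loading, the class I transactivator Nlrc5, and H2-Ke6. H2-Ke6 encodes a metabolic enzyme and carries the H2- name only because it lies in the MHC (major histocompatibility complex) region. Ciita, the class II transactivator, was also sought by name and is not among the genes listed. H2-T10 and H2-T-ps match the name but carry another biotype and were not counted.

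Low-MYC and high-MYC MEFs, which are primary fibroblasts of mouse embryos, were each sequenced in 2 RNA libraries that the study describes as technical replicates. Both groups carried the Myc-Egfp fusion on both alleles, were used within a few passages and were given the proteasome inhibitor MG-132 (20 µM, 6 h) ahead of sorting on low or high GFP intensity, so cells without the inhibitor do not enter the comparison. Synthetic ERCC transcripts were added in proportion to cell count, and the deposited values are FPK (fragments per kilobase of transcript) divided by a spike-in score, which sets each mRNA against the number of cells. The other 5 of the 9 samples in the series measured FUBP1 binding and chromatin accessibility and are not used here.

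MHC class I molecules consist of a polymorphic heavy chain and the invariant light chain B2m, and present peptides from the cytosol to CD8 T cells on nearly all nucleated cells. Peptides cut by the proteasome enter the endoplasmic reticulum through the TAP transporter, are trimmed by Erap1 and are loaded with the help of tapasin, calreticulin, calnexin and Pdia3. Class II molecules present peptides from the endocytic route to CD4 T cells and are made mainly by macrophages, dendritic cells and B lymphocytes, whereas fibroblasts make them chiefly after interferon-γ.

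Normalized FPK summed over all genes to 46321 and 48291 in the low-MYC libraries and to 102853 and 109090 in the high-MYC libraries. Myc itself stood at 9.81 and 9.86 in low-MYC and at 20.3 and 20.5 in high-MYC cells. Read counts are not used here, but the smallest steps between values gave an estimate of what 1 read is worth in each library. Relative to low-MYC replicate 1, the summed reads per kilobase implied by it were 1.04 in low-MYC replicate 2. They were 0.984 and 0.927 in high-MYC replicates 1 and 2. By this measure, which is not a read total, depth was similar. The worth of 1 read is approximate, since 43.8% to 45.3% of low values lay within 0.1 of a whole read. Estimated reads given below as "at most" are limits as regards transcript length and not as regards this step. All 10 fibroblast markers were detected in every library and their summed level was 182 and 183 in low-MYC and 471 and 475 in high-MYC cells. The 16 macrophage markers summed to 0.95 and 1.30 in low-MYC and to 30.2 and 31.5 in high-MYC cells, with C1qa, Tyrobp and Adgre1 listed at 0 in low-MYC replicate 1. In bulk RNA a larger share of cells of one type and more RNA in each such cell cannot be told apart.

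The high-MYC libraries held more mRNA of nearly every antigen presentation gene per cell, and so did they of most other genes. In 27 of the 28 genes both high-MYC libraries lay above both low-MYC libraries, the exception being H2-M5, and 92.5% of all genes in the table showed the same order. For testing, log2(normalized FPK + 0.1) was compared with limma, adjusted by Benjamini-Hochberg, over the 11870 genes whose mean reached 0.1. Of the 28 genes 17 reached this mean, 1 of them (H2-DMb1) only through the high-MYC libraries, so that its higher value was favoured by the filter. All 17 were higher in high-MYC cells at an adjusted p under 0.01, against 97.1% of all genes tested. Of the 17, 12 were at least 2-fold higher, against 55.1%, and none was lower. With an added value of 0.01 the 2-fold counts were 15 of 17 and 10076 of 11870, so the gap between them depended on the added value. The added 0.1 shrinks the log2 fold changes of low genes, which can also lower the 2-fold counts of the lists below. The median log2 fold change of the 17 was 1.19 and that of all genes tested was 1.03. These p-values measure only the spread between technical replicates.

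**Figure D1:**
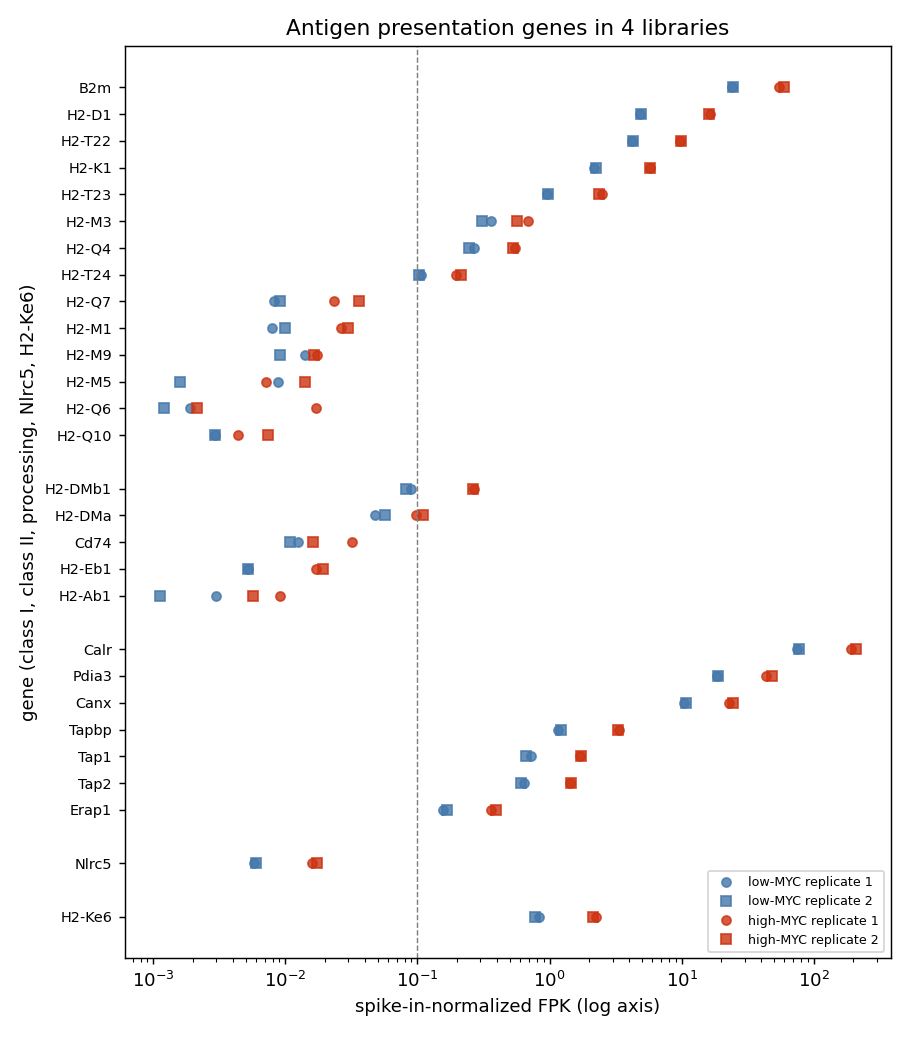
Spike-in-normalized FPK of the 28 antigen presentation genes on a log axis, 1 point per library (blue low-MYC, red high-MYC), in blocks from top to bottom of class I, class II, processing, Nlrc5 and H2-Ke6. The dashed line marks the mean of 0.1 needed for testing; the red points lie to the right of the blue ones in 27 genes, and 4 of the 5 class II chains have their mean below the line.

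Because nearly all genes were higher per cell, the same fit was repeated after the libraries had been brought to 1 common median over the genes tested. A value then states how far a gene departed from the median gene, whose own ratio of high-MYC to low-MYC was 2.26. On this scale 1 of the 17 genes, H2-D1, was higher at an adjusted p under 0.01 (limma, Benjamini-Hochberg), against 1.76% of all genes tested, and 0 were lower, against 0.531%. At an adjusted p under 0.05, 5 were higher (H2-D1, H2-K1, Calr, Tapbp and the H2-DMb1 favoured by the filter), against 7.84% of all genes, and 0 were lower. The rescaled log2 fold change was positive in 13 of the 17 and negative in 4, beside 5757 positive and 6113 negative among all 11870 genes tested.

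**Figure D2:**
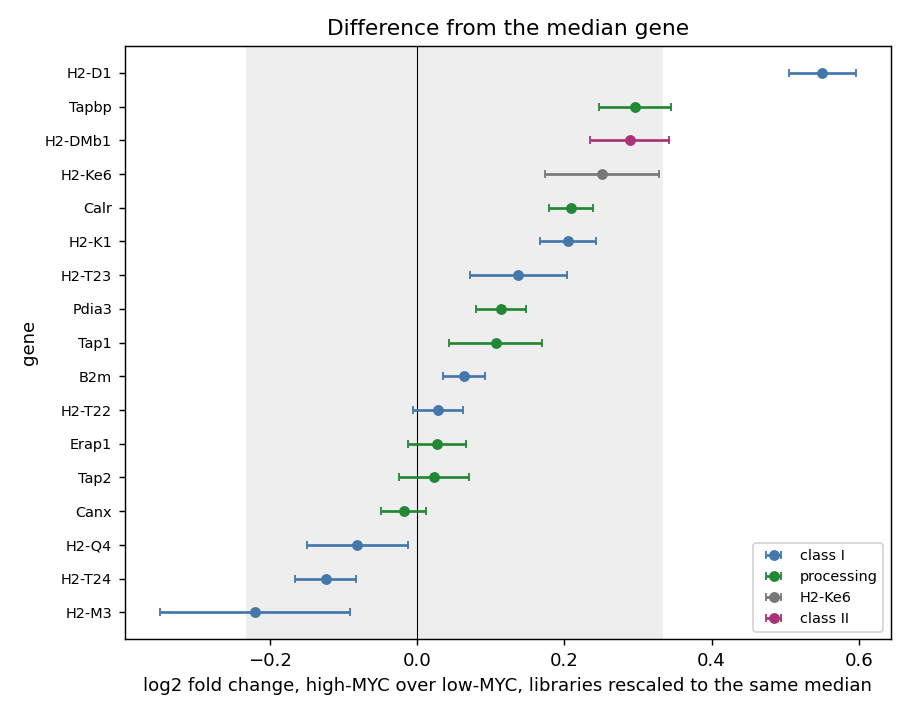
Log2 fold change of high-MYC over low-MYC cells after rescaling the libraries to the same median, for the 17 genes tested, with bars of 1 standard error (limma, 2 libraries per group). Grey marks the range that leaves out the highest and the lowest 5% of all 11870 genes (−0.23 to 0.33); H2-D1, at 0.55, is the gene whose whole bar lies beyond it.

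The class I heavy chains are encoded on chromosome 17, and B2m on chromosome 2 (mm10). Their promoters are known to carry a kappaB element, an interferon-stimulated response element (ISRE), and an SXY module with a CRE-like element and a CCAAT box. The promoters of B2m and of 3 heavy chains that span the range of differences are shown from 250 bases before to 50 bases after the RefSeq start (GRCm38.p6), in lower case with matches to 5 letter patterns in capitals. The patterns, searched on both strands, were GAAANNGAA for the ISRE, GGGANTNNC for kappaB, TGACG for the CRE-like site, CCAAT, and CACGTG for the E-box bound by MYC. In H2-M3 the kappaB match overlaps a CCAAT match, so that the 2 appear as 1 run of capitals.
B2m (chr2:122147437-122147736, plus strand): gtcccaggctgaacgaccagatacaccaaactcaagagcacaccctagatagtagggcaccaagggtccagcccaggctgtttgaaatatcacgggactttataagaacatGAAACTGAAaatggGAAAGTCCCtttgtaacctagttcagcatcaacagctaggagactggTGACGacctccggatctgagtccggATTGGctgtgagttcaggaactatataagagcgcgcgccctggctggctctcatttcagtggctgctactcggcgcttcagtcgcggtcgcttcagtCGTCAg
H2-D1 (chr17:35262844-35263143, plus strand): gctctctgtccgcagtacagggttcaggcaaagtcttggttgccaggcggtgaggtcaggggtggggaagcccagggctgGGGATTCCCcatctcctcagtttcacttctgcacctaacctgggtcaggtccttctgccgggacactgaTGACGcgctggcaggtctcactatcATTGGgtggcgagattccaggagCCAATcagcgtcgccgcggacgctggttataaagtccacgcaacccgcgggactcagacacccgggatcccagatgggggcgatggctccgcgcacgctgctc
H2-K1 (chr17:34000284-34000583, minus strand): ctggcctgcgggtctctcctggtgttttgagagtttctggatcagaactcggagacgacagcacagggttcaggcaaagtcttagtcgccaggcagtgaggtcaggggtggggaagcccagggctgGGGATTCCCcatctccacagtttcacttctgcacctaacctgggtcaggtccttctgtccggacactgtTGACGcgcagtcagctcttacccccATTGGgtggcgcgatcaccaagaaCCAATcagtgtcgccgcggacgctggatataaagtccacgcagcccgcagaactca
H2-M3 (chr17:37269984-37270283, plus strand): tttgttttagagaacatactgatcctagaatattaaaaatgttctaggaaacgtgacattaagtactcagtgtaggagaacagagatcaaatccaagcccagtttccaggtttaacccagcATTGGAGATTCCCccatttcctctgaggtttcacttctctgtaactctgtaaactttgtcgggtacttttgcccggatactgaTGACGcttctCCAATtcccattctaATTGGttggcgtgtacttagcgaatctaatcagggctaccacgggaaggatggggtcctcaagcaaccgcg

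RefSeq promoters were matched for 23 of the 28 genes and not for H2-T24, Tap2, H2-Ab1, Cd74 and Nlrc5, which left 13 of the 14 class I genes. The kappaB pattern was found in 9 of them, the CRE-like site in 7, CCAAT in 11, the ISRE pattern in 3 (B2m, H2-T22 and H2-T23) and the E-box in 0. In all 32851 promoters of the same length these patterns occurred in 14%, 20.8%, 37.4%, 8.56% and 7.15%. H2-D1 and H2-K1 share the letters of the kappaB match and hold the same patterns, and their levels moved by different amounts. A match states only that the letters are present, and a missing match does not show that the element is absent. H2-D1, H2-K1, H2-M3, H2-Q4, H2-Q6, H2-Q7 and H2-Q10 hold gtttcacttct, which the ISRE pattern does not match on either strand. A start annotated elsewhere would shift the window.

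H2-D1, one of the classical heavy chains that present peptides to CD8 T cells, had the largest ratio among the 8 class I genes that reached the minimum mean. Its normalized FPK was 4.82 and 4.92 in low-MYC and 16.3 and 16.1 in high-MYC cells. The groups were far apart relative to their replicates, at 4.87 ± 0.0677 and 16.2 ± 0.152 (SD, n = 2). The ratio was 3.33 and the log2 fold change 1.71 with a standard error of 0.0399 (limma, Benjamini-Hochberg adjusted p = 1.04e-05), which ranked 127th from the highest among 11870 genes. Against the median gene it was 0.55 higher on the log2 scale with a standard error of 0.0452 (limma, adjusted p = 0.00988), ranked 260th. This value lay close to the threshold. Over 11 alternatives on this scale the size ranged from 0.50 to 0.60, while the adjusted p (limma) ranged from 0.000149 to 0.0300 and passed 0.01 in 2 of them. It was 0.0257 with the replicate number as a block, and leaving out any 1 of the 4 libraries gave 0.0196 to 0.0300.

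H2-K1, the other classical heavy chain of the reference strain, stood at 2.16 and 2.23 in low-MYC and at 5.73 and 5.77 in high-MYC cells. Its ratio was 2.62 and its log2 fold change 1.35, and its rescaled log2 fold change was 0.21 (limma, Benjamini-Hochberg adjusted p = 0.0453). The groups did not overlap, and the difference from the median gene did not pass 0.01.

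B2m, the light chain shared by all class I molecules, was among the more abundant mRNAs, ranked 260th of 19769 in low-MYC and 248th in high-MYC cells by mean level. It stood at 24 and 24.7 in low-MYC and at 55.1 and 60.0 in high-MYC cells, a ratio of 2.37 close to that of the median gene. Its rescaled log2 fold change was 0.06 (limma, Benjamini-Hochberg adjusted p = 0.216).

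The nonclassical heavy chains have narrower roles. H2-T22, a ligand of some γδ T cell receptors, stood at 4.21 and 4.29 against 9.74 and 9.89, with a ratio of 2.31 and a rescaled log2 fold change of 0.03. H2-T23 encodes Qa-1, which presents signal peptides of other class I chains to NK cell receptors, and stood at 0.962 and 0.981 against 2.51 and 2.35. Its rescaled log2 fold change was 0.14 (limma, adjusted p = 0.235). Both were more than 2-fold higher per cell and neither was separated from the median gene.

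H2-M3, which presents N-formylated peptides, had the lowest rescaled value among the 17. It stood at 0.358 and 0.308 in low-MYC and at 0.686 and 0.570 in high-MYC cells, with SDs of 0.0353 and 0.0826 around means of 0.333 and 0.628 (n = 2). Its log2 fold change was 0.75 with a standard error of 0.102, and its rescaled value was −0.22 with a standard error of 0.130 (limma, adjusted p = 0.315). H2-Q4 rose from 0.268 and 0.245 to 0.551 and 0.529, and H2-T24 from 0.106 and 0.103 to 0.197 and 0.215. The rescaled values of the pair were −0.08 and −0.12 (limma, adjusted p = 0.463 and 0.129). For these low genes the added 0.1 shrinks the log2 fold change: without it the ratios of H2-M3, H2-Q4 and H2-T24 were 1.89, 2.11 and 1.97.

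The other 6 heavy chains (H2-M1, H2-M5, H2-M9, H2-Q6, H2-Q7 and H2-Q10) did not reach the minimum mean. Each corresponded to at most 4.94 reads in any library, estimated from the longest coding transcript and the step of 1 read. H2-Q6 was at 0.0170 in high-MYC replicate 1 and at 0.00213 in replicate 2, and H2-M5 overlapped between groups. At this depth no difference in these 6 could be measured against the general shift.

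Heavy chain genes are close copies of each other, and reads shared between them were split by the authors' quantification. Windows of 75 bases that also occur in transcripts of other genes made up 6.90% of the longest coding transcript of H2-D1 and 1.55% of that of H2-K1. The share was 26.1% in H2-T22 (20.1% with H2-T10), 21.7% in H2-Q7, 17.9% in H2-Q6, 13.1% in H2-T23 and 7.91% in H2-Q4, so these values are uncertain. B2m shared 0 windows. The H2 haplotype of the mice is not given in the sources used here, and how alignment to the reference haplotype affects these genes was not tested.

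Within a library the scaling cancels, so the make-up of heavy chain mRNA does not depend on the spike-in. The 13 heavy chains summed to 12.9 and 13.1 in low-MYC and to 35.8 and 35.5 in high-MYC cells. H2-D1 made up 37.3% and 37.5% of this sum in low-MYC and 45.5% and 45.3% in high-MYC cells, a difference of 8.02 percentage points. H2-T22 made up 32.6% and 32.7% against 27.2% and 27.8%, whereas the share of H2-K1 was 16.7% and 17% against 16% and 16.2%. In each of these the groups did not overlap. The exact permutation test gave p = 0.333 (two-sided) for every share and ratio, the smallest p that 2 against 2 libraries allow.

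**Figure D3:**
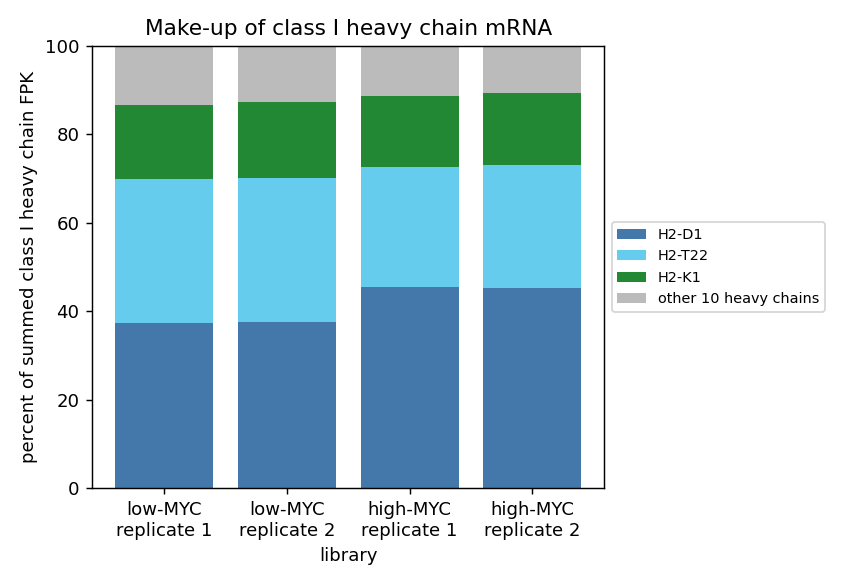
Share of the summed class I heavy chain FPK, in percent, taken by H2-D1, H2-T22, H2-K1 and the other 10 heavy chains in each of the 4 libraries. The H2-D1 segment covers 37.3% and 37.5% in low-MYC and 45.5% and 45.3% in high-MYC cells, and the H2-T22 segment is smaller in high-MYC cells.

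The level of H2-D1 relative to H2-K1 was 2.23 and 2.20 in low-MYC and 2.84 and 2.79 in high-MYC cells. Relative to B2m it was 0.201 and 0.199 against 0.296 and 0.268. There were 1.85 and 1.88 units of B2m FPK per unit of summed heavy chain FPK in low-MYC and 1.54 and 1.69 in high-MYC cells. H2-D1 therefore differed between groups also relative to its light chain in the same library. The summed macrophage markers, at 0.95 and 1.30 against 30.2 and 31.5, moved with this result, and their part in it was not tested.

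The processing genes had the highest summed level of the 3 classes. It was 107 and 109 in low-MYC and 263 and 288 in high-MYC cells. Most of it came from the chaperones Calr and Canx and from Pdia3. Tap1, Tap2, Tapbp and Erap1 each stood at 3.37 or less in every library. Together they lay below the class I sums of 36.9 and 37.8 in low-MYC and 90.9 and 95.5 in high-MYC cells. All 7 processing genes were tested, and 6 were at least 2-fold higher per cell (55.1% of all genes tested). Of the 7, 0 departed from the median gene at an adjusted p under 0.01 (limma, Benjamini-Hochberg). Their median log2 fold change was 1.18, beside 1.21 in the 8 class I genes tested. The highest level belonged to Calr (calreticulin, a chaperone of glycoproteins in the endoplasmic reticulum), which ranked 99th of 19769 genes in low-MYC and 81st in high-MYC cells.

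Among the lectin chaperones Calr stood at 75.1 and 77.0 in low-MYC and at 190 and 208 in high-MYC cells, and its rescaled log2 fold change was 0.21 (limma, adjusted p = 0.0293). Canx (calnexin, its membrane-bound relative) stood at 10.33 and 10.87 against 22.7 and 24.7, with a rescaled value of −0.02. The level of Calr was 7.27 and 7.08 times that of Canx in low-MYC and 8.37 and 8.43 times in high-MYC cells, without overlap (exact permutation p = 0.333). Pdia3, the disulfide isomerase that works with both, stood at 18.6 and 18.8 against 43.4 and 48.3, with a rescaled value of 0.11.

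The transporter subunits Tap1 and Tap2 moved nearly alike. Tap1 stood at 0.728 and 0.666 in low-MYC and at 1.70 and 1.72 in high-MYC cells, and Tap2 at 0.645 and 0.609 against 1.42 and 1.47. Their rescaled log2 fold changes were 0.11 and 0.02 (limma, adjusted p = 0.313 and 0.768). Tapbp (tapasin), which bridges the transporter and the empty heavy chain, stood at 1.16 and 1.22 against 3.37 and 3.30 and had the largest rescaled value of the 7, 0.30 with a standard error of 0.0492 (limma, adjusted p = 0.0388). Erap1, the peptide-trimming aminopeptidase, stood at 0.157 and 0.169 against 0.361 and 0.395, with a ratio of 2.32 and a rescaled value of 0.03.

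Of the 6 processing genes with a RefSeq promoter, 2 (Calr and Erap1) held the E-box pattern, 1 (Erap1) the ISRE pattern, 3 the CRE-like site, 5 CCAAT and 0 kappaB. In all 32851 promoters these patterns occurred in 7.15%, 8.56%, 20.8%, 37.4% and 14%, in this order. The promoters with the E-box are printed as before (GRCm38.p6). In Erap1 a pair of overlapping ISRE matches forms 1 run of capitals.
Calr (chr8:84846882-84847181, minus strand): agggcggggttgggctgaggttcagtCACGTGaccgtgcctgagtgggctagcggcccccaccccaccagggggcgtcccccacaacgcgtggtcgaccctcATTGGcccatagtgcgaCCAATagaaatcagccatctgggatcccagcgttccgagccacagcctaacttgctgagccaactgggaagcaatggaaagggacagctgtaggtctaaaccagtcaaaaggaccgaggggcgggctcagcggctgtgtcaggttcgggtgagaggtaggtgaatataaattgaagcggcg
Erap1 (chr13:74639603-74639902, plus strand): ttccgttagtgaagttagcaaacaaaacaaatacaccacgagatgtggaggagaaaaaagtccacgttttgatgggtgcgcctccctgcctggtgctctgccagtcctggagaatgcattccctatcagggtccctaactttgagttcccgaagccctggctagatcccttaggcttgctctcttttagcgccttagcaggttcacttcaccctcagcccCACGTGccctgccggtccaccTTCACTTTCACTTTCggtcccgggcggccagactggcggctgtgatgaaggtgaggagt

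Other genes of the class I pathway, from a list made by known function, gave similar values. All 4 tested of the 5 genes of the immunoproteasome and its PA28 activator were higher per cell (97.1% of all genes tested), 3 of them at least 2-fold (55.1%), and 0 departed from the median gene at an adjusted p under 0.01 or 0.05 (limma, Benjamini-Hochberg). Psmb8, a catalytic subunit, had the smallest log2 fold change, 0.91, and Psme1, a PA28 subunit, the largest, 1.27. Psmb9, the subunit encoded beside Tap1, was below the minimum at 0.0377 and 0.0292 in low-MYC and 0.138 and 0.103 in high-MYC cells. Of 7 further genes (among them Hspa5, Pdia4, Fcgrt, Mr1 and Cd1d1) 7 were higher (97.1% of all genes tested) and 6 at least 2-fold (55.1%), with a median log2 fold change of 1.21. Relative to the median gene 0 of the 7 were higher at an adjusted p under 0.01 and 3 at an adjusted p under 0.05 (limma, Benjamini-Hochberg), against 1.76% and 7.84% of all genes.

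Class II chains were near the limit of detection in all 4 libraries. The 5 chains together summed to 0.157 and 0.156 in low-MYC and to 0.425 and 0.417 in high-MYC cells, whereas the 14 class I genes summed to 36.9 and 37.8 against 90.9 and 95.5. Most of the class II sum came from H2-DMa and H2-DMb1, which encode the chains of the peptide exchange factor DM and not a surface molecule. In estimated reads the 5 chains held at most 57.5, 58.4, 67.1 and 59.2 reads per library, and Cd74, H2-Ab1 and H2-Eb1 together at most 6.83, 5.84, 8.65 and 5.62.

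**Figure D4:**
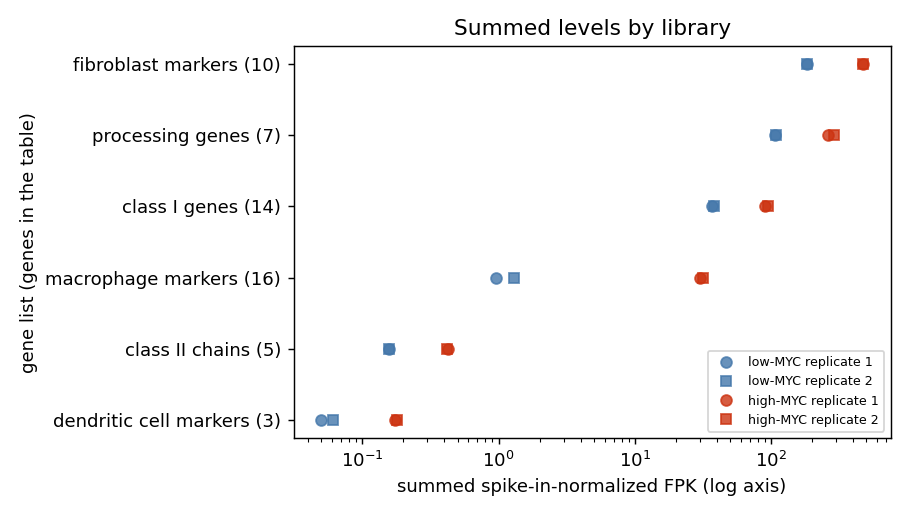
Summed spike-in-normalized FPK on a log axis, 1 point per library, of the class I genes, processing genes and class II chains and of marker genes of fibroblasts, macrophages and dendritic cells (number of genes in the table in brackets). Class II chains lie at 0.156 to 0.425 in all libraries, and macrophage markers at 0.95 and 1.30 in low-MYC and 30.2 and 31.5 in high-MYC cells.

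H2-DMb1 was the class II chain that reached the minimum, and its mean passed 0.1 only through the high-MYC libraries. It stood at 0.0887 and 0.0822 in low-MYC and at 0.269 and 0.265 in high-MYC cells, a ratio of 3.12. Its log2 fold change was 0.98 and its rescaled value 0.29, given as a description since the filter favoured a higher value, on at most 38.4 estimated reads in a library. A share of 19.1% of its 75-base windows also occurs in H2-DMb2. H2-DMa stood at 0.0481 and 0.0567 against 0.0983 and 0.110, a ratio of 1.99. The DM chains thus differed between groups by unlike amounts, a contrast that was not tested.

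Cd74, the invariant chain that occupies the class II groove until peptide is loaded, stood at 0.0124 and 0.0109 in low-MYC and at 0.0321 and 0.0163 in high-MYC cells. H2-Ab1, the β chain of I-A, stood at 0.00297 and 0.00112 against 0.00915 and 0.00565. H2-Eb1, the β chain of I-E, stood at 0.00523 and 0.00525 against 0.0172 and 0.0194. Each of these values corresponds to at most 4.61 reads, and Cd74 ranked 15210th of 19769 genes in low-MYC and 15536th in high-MYC cells.

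Below the minimum mean the order of the libraries carries little: 10 of 11 such antigen presentation genes had both high-MYC libraries above both low-MYC libraries, against 82.7% of all genes under the minimum, and 1 read is worth 2.26 and 2.54 times as much in the high-MYC libraries as in low-MYC replicate 1. With an added value of 0.001 and a minimum of 0.005, 26 of the 28 genes could be tested and 22 were higher at an adjusted p under 0.01 (limma, Benjamini-Hochberg), against 81.3% of 17477 genes. Among the 9 genes tested only in this way 5 were higher. The share of all genes tested only in this way was not determined, so this count has no comparison.

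Class II promoters carry the same SXY module, bound by RFX, CREB and NF-Y, on which the transactivator CIITA assembles. Of the 5 class II chains 3 (H2-DMa, H2-DMb1 and H2-Eb1) were matched to a promoter, 3 held CCAAT and 0 the ISRE, kappaB, CRE-like or E-box pattern. In all 32851 promoters these patterns occurred in 37.4%, 8.56%, 14%, 20.8% and 7.15%, in this order. For H2-DMa CCAAT lay at −198 in the window chr17:34125268-34125567 and was absent from the window chr17:34122582-34122881. A missing match does not show that the module is absent. H2-DMb1 and H2-Eb1 both hold aactgatgatgct ahead of a CCAAT match, and TGACG does not match these letters. The promoters of H2-DMb1 and H2-Eb1 are printed in the same way (GRCm38.p6).
H2-DMb1 (chr17:34152941-34153240, plus strand): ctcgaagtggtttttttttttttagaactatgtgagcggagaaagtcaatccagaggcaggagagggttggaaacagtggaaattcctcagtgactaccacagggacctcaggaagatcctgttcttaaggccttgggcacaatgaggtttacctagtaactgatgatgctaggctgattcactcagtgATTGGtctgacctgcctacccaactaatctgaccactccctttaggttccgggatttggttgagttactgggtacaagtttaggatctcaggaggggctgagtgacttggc
H2-Eb1 (chr17:34305617-34305916, plus strand): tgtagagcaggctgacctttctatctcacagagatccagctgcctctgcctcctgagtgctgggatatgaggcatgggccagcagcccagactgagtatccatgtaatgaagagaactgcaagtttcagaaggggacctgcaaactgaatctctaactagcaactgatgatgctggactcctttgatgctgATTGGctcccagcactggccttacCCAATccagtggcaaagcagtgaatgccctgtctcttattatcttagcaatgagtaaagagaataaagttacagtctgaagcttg

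The DNA-binding factors of this module were expressed. All 7 genes of the list (Rfx5, Rfxank, Rfxap, Creb1, Nfya, Nfyb and Nfyc) were tested. With the added 0.1, 7 were higher per cell (97.1% of all genes tested) and 3 at least 2-fold (55.1%). Their median log2 fold change was 0.95. Without the added 0.1 their lowest ratios were 1.85 (Rfxank) and 2.07 (Rfxap). The highest was 2.28 (Nfyb), beside 2.26 for the median gene. The rescaled values of the 7 ran from −0.25 (Rfxank) to 0.01 (Nfyb), and 0 passed an adjusted p of 0.01 (limma, Benjamini-Hochberg). Of the 7, 6 were negative, beside 6113 of all 11870 genes tested.

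The enzymes that prepare class II peptides are lysosomal proteins made by many cells. All 5 tested of 6 were higher per cell (97.1% of all genes tested) and 4 at least 2-fold (55.1%). Ctsb (cathepsin B) had the largest log2 fold change, 1.65, and was also higher than the median gene by 0.47 on the log2 scale (limma, Benjamini-Hochberg adjusted p = 0.00667). Ifi30, the interferon-inducible thiol reductase, had the smallest, 0.70, and lay below the median gene at −0.46 (limma, adjusted p = 0.0108), which did not pass 0.01. At an adjusted p under 0.05 (limma, Benjamini-Hochberg) 4 of the 5 were higher than the median gene, against 7.84% of all genes. At this threshold 1 was lower, beside 603 of all 11870 genes tested. Ctss, the cathepsin of macrophages and dendritic cells that degrades the invariant chain, was below the minimum at 0.00103 and 0.00147 in low-MYC and 0.159 and 0.182 in high-MYC cells.

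Among the cells that make class II molecules, macrophages had markers that were far higher in the high-MYC libraries. Of the 16 macrophage markers 16 had both high-MYC libraries above both low-MYC libraries, beside 92.5% of all genes in the table. Of these, 11 reached the minimum mean, 9 of them only through the high-MYC libraries, so no test is given for the list. The smallest ratio among the markers was that of Cd14, a receptor for bacterial lipopolysaccharide, at 0.322 and 0.431 in low-MYC and 1.91 and 1.85 in high-MYC cells. The lysozyme gene Lyz2 stood at 0.0305 and 0.142 in low-MYC and at 18.0 and 18.9 in high-MYC cells. Of 8 dendritic cell markers Itgax, Xcr1 and Zbtb46 were listed, with summed levels of 0.0496 and 0.0607 against 0.175 and 0.180. All were below the minimum mean, and their ratios were unlike, at 31.1, 3.54 and 1.80. The lists of B lymphocyte and T lymphocyte markers, 5 genes each, had 0 genes in the table. The part of these cells in the class I, class II and processing values was not tested.

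Costimulatory and checkpoint ligands, which accompany antigen presentation on professional cells, were low. Of 5 listed genes only Cd80 was tested, with a log2 fold change of 0.74. Cd86 was listed at 0 in both low-MYC libraries and stood at 0.000941 and 0.00142 in the high-MYC libraries.

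Nlrc5, the transactivator of class I genes, was below the minimum in both groups, at 0.00576 and 0.00601 in low-MYC and 0.0159 and 0.0174 in high-MYC cells, a ratio of 2.82. Its long transcript corresponded to at most 10.0 to 12.2 reads per library. Genes of interferon signalling, a known inducer of class I, were measured at higher levels. All 12 were tested, 12 were higher per cell (97.1% of all genes tested) and 10 at least 2-fold (55.1%), with a median log2 fold change of 1.15, and 0 departed from the median gene at an adjusted p under 0.01 (limma, Benjamini-Hochberg). The transcription factor Irf1 had the largest log2 fold change, 1.39, followed by Irf9, 1.31. The smallest, 0.58, was that of Irf2, which reached the minimum only through the high-MYC libraries. Without the added 0.1 the order differed, with ratios from 1.98 in Ifngr1 to 3.53 in Socs1. Irf1 stood at 2.90 and Irf2 at 2.14. Of the 5 NF-kB subunits 5 were higher, beside 97.1% of all genes tested, and 0 departed from the median gene. With the added 0.1, 1 was at least 2-fold higher (Rela, log2 fold change 1.15), beside 55.1%. Without it the ratios of Relb, Nfkb1, Rela, Rel and Nfkb2 were 2.39, 2.31, 2.26, 2.20 and 1.995, beside 2.26 for the median gene.

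H2-Ke6 stood at 0.834 and 0.778 in low-MYC and at 2.26 and 2.13 in high-MYC cells, a ratio of 2.73. Its rescaled log2 fold change was 0.25 (limma, Benjamini-Hochberg adjusted p = 0.113), and 52.0% of its windows are shared with the overlapping gene Gm20427. The H2- genes, Tap1, Tap2 and Tapbp lie between positions 33915899 and 37274484 of chromosome 17 (mm10) with 113 other genes. Of these 73 were tested. Per cell 69 were higher and 2 lower, and 57 were at least 2-fold higher, beside 97.1% of all genes tested that were higher, 3 genes in all that were lower and 55.1% at least 2-fold higher. Relative to the median gene 0 were higher, beside 1.76% of all genes tested, at an adjusted p under 0.01 (limma, Benjamini-Hochberg). At the same threshold 2 were lower, beside 0.531%. The rescaled log2 fold changes of the 73 ran from −1.5 to 0.60 with a median of −0.002.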

How the data were processed

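The deposited table of RNA levels in low-MYC and high-MYC MEFs (2 technical replicates each) was analysed. After MG-132 and sorting, cells were seeded overnight before RNA was taken. The authors removed 3′ bases of poor quality, used TopHat to place stranded mRNA reads on mm10 transcripts, quantified these by expectation-maximization in Partek and divided by transcript length and by a score from ERCC transcripts. The deposited values are therefore a signal relative to cell number, in which reads shared by close copies of a gene are split. Versions of TopHat and Partek are not given in the sources used here.

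Groups and replicates came from the sample labels. From the deposited signal, log2(normalized FPK + 0.1) was fitted with limma 3.58.1 (lmFit, eBayes with trend) in R 4.3.3, in 1 fit over all genes whose mean reached 0.1, with Benjamini-Hochberg adjustment. The threshold was an adjusted p of 0.01, with and without a 2-fold minimum. A second fit rescaled each library to the same median. The procedure was tested on simulated data. Shares and ratios within libraries were compared by exact permutation. The genes named are every gene of the opening definition, and genes of fixed pathway and marker lists for at most the 3 largest and 3 smallest log2 fold changes or where a gene defines a cell type. Hspa5, Pdia4, Fcgrt, Mr1, Cd1d1 and the class II promoter factors are named as list members. Socs1 is named for its ratio without the added 0.1. Members and lists were chosen with earlier results of these data known. Reads per gene were estimated from the steps between low values, with the longest coding transcript. They are upper limits as regards transcript length only, since the step itself is approximate and the largest that fitted nearly best was taken. Promoters were taken from RefSeq (GRCm38.p6). Alternatives changed the minimum mean, the pseudocount, the scaling, the trend, the replicate block, the threshold and each library left out. Python 3.11.15, pandas 2.3.3, numpy 2.4.6 and matplotlib 3.10.9 were used.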

Additional observations from a re-analysis of the deposited data

How the results depend on the processing

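The count of antigen presentation genes at least 2-fold higher per cell, 12 of 17, became 15 of 17 and 7 with pseudocounts of 0.01 and 1. It was 12 of 12 with a minimum mean of 1, and 19 of 26 when the pseudocount was 0.001 and the minimum mean 0.005. With libraries scaled to the same total or the same median it became 0. At any fold, 17 became 1 under both scalings. The count above the median gene, 1 (H2-D1), became 0 with a pseudocount of 1, with the low pseudocount and minimum, with no minimum mean, without the limma trend, with the replicate block, and without any 1 of the 4 libraries (0 to 0). It became 2 (H2-D1 and Tapbp) with a minimum mean of 1 and 5 at an adjusted p under 0.05. The cause of these changes was not tested. Over all genes, the 6540 of 11870 at least 2-fold higher became 10076 and 1448 with pseudocounts of 0.01 and 1. They became 4779 of 5608 with a minimum mean of 1, and 12806 of 17477 with the low pseudocount and minimum. With libraries scaled to the same total and the same median they became 71 and 68. The 209 above and 63 below the median gene became 72 and 10 with the low pseudocount and minimum, 64 and 7 with no minimum mean, 318 and 213 with a minimum mean of 1, and 0 and 0 with the replicate block. They were 98 and 15 without low-MYC replicate 1, 79 and 8 without low-MYC replicate 2, and 0 and 0 without either high-MYC replicate. The lone library of a group is then assumed to vary like the other group.

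Signs changed in few genes. With libraries scaled to equal totals and equal medians, Canx had log2 fold changes of −0.0029 and −0.0182, and the values were −0.21 and −0.22 for H2-M3, −0.0692 and −0.0814 for H2-Q4, and −0.11 and −0.12 for H2-T24. Against the median gene Canx ranged from −0.0326 to 0.0093 with 1 library left out, the highest without low-MYC replicate 2. H2-T22 was at −0.0021 with the low pseudocount and minimum, −0.0038 with no minimum mean, and from −0.0033 (without high-MYC replicate 1) to 0.062 with 1 library left out. Tap2 was at −0.0057 and −0.0069 under the first 2 of these, and from −0.0227 (without low-MYC replicate 2) to 0.0815 with 1 library left out. The replicate numbers of the labels did not pair the libraries: across 11870 genes the deviations of same-numbered libraries correlated with r = 0.081. With the replicate block 12 antigen presentation genes were at least 2-fold higher, and the block moved the counts against the median gene as given above. Of the 28 genes 10 lay under 15 estimated reads in every library, so for most class II chains depth limits any comparison.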
